A study of Mus musculus with 12 samples.

Results

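A set of 8 genes of the CXC chemokine system was followed through the myeloid cells of MC38 tumors: the ligands Cxcl1, Cxcl2, Cxcl3, Cxcl5 and Ppbp, their receptor Cxcr2, and the separate pair Cxcl12 and Cxcr4. They were taken as a named list of 8 of the 31053 genes in the matrix, by symbol, and each was found. MC38 is a mouse colon carcinoma line, here implanted under the skin of C57BL/6 mice on day 0, and CD45+ cells were pulled from the tumors on day 17 with magnetic beads and sequenced as 10x Genomics 3′ libraries. The labels list 12 mice, 3 in each of 4 groups: Vehicle_7d and PF-06821497_7d, dosed daily from day 10, and Vehicle_16d and PF-06821497_16d, dosed daily from day 1. PF-06821497 is an inhibitor of the histone methyltransferase EZH2 (EZH2i), given at 100 mg/kg. Each barcode carries a library number from 1 to 12, and no sample label or deposited file names the mouse or group of a number. The libraries were therefore kept as 12 unassigned samples, no value was compared between EZH2i and vehicle, and no test of a difference was run. Values are given as the lowest, the median and the highest over libraries, or for all libraries pooled.

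CXC chemokines with a Glu-Leu-Arg motif before the first cysteines draw neutrophils out of the blood, and in the mouse they act chiefly through Cxcr2, a G protein-coupled receptor of the neutrophil surface. Cxcl1 and Cxcl2 are early products of activated macrophages, stromal cells and neutrophils, Cxcl5 is best known from epithelium, and Ppbp, whose product is processed to NAP-2, is stored in platelets. Cxcl12, made by stromal and endothelial cells, binds Cxcr4, which holds neutrophils and their precursors in the bone marrow and is carried by most leukocytes.

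The 5 ligands that signal through Cxcr2 lie side by side on mouse chromosome 5. On GRCm38 with GENCODE M21 genes they occupy 146.6 kb of the plus strand, from 90759360 to 90905938, in the order Cxcl5, Ppbp, Cxcl3, Cxcl1, Cxcl2. Cxcr2 (74153989 to 74161246, plus strand) and Cxcr4 (128588199 to 128592293, minus strand) are on chromosome 1, and Cxcl12 (117168535 to 117181367, plus strand) is on chromosome 6. None of the 8 overlaps another annotated gene on either strand. Of the 967 distinct stretches of 50 bases in the Cxcl3 protein-coding transcript, 61 also occur in Cxcl2. They end 850 bases or more before the 3′ end of Cxcl3 and 939 bases or more before that of Cxcl2, while the assay primes at the 3′ end. No stretch of 50 bases of Cxcl1, Ppbp, Cxcr4 or Cxcl12 was found in another gene. Cxcr2 shares 122 of its 3039 stretches with other genes, and Cxcl5 shares 13 of 1492.

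The start regions of Cxcl1, Cxcl2 and Cxcl3 are shown because these are the 3 ligands with most of the measured RNA, and because they share a run of letters that the other members with a window lack. RefSeq's promoter windows (GRCm38.p6, 250 bases before to 50 after each start) were available for 7 of the 8 genes. The longest run of letters shared by all 3 before their starts was GGGAATTTCCC, which matches the kappa B motif bound by NF-kappa B. It stood on either strand in 14 of 32851 windows (0.0426%), these 3 included, and in none of the 4 other members with a window. It began 71, 97 and 73 bases before the RefSeq start in Cxcl1, Cxcl2 and Cxcl3. GENCODE starts Cxcl2 at 90903871, nearer the run than the RefSeq start. In each gene it was followed, after 26, 29 and 33 bases, by ATAAAAGG, letters of a TATA box type that were picked after these windows had been read and stood in 1.76% of all windows, that of Ppbp on the other strand included. Both runs stood together in 3 of the 32851 windows, those of these genes. The letters were chosen from these sequences, so their presence there is a description. The windows below run 5′ to 3′ on the plus strand and stop before the annotated transcripts, with both runs in capitals. They cover chr5:90891144-90891224 for Cxcl1, chr5:90903772-90903855 for Cxcl2 and chr5:90785998-90786085 for Cxcl3.
Cxcl1: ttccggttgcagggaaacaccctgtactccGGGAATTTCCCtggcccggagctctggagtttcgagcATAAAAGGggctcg
Cxcl2: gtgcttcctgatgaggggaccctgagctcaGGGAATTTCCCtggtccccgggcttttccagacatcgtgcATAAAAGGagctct
Cxcl3: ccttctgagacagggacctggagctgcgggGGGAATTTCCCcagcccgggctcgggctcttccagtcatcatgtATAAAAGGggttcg

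Cells were assigned to classes by the unique molecular identifiers (UMIs) of lineage genes, never by the 8 genes themselves. Of 140639 barcodes, 128912 cells passed the filter on genes and mitochondrial UMIs. The gates found 88817 macrophages (C1qa, C1qb, C1qc and Adgre1), 4612 monocytes (Ly6c2 with Ccr2, Plac8 or Chil3), 2522 neutrophils (S100a8 and S100a9 with Csf3r, G0s2, Retnlg, Mmp9 or Trem1) and 2138 dendritic cells. A further 5566 T cells and 271 B cells, which should lack the ligands, were set beside them. At least 50 cells were present in 12 libraries for macrophages and monocytes, 11 for dendritic cells and T cells, and 10 for neutrophils (libraries 5 and 6 held 24 and 28). Levels are UMIs summed over the cells of a class in a library, per 1000000 UMIs of those cells (CPM), in a 3′ assay whose UMIs do not scale with transcript length. S100a8 and S100a9 together stood at 55336 CPM in the neutrophils and 50.7 in the monocytes, and the macrophage genes at 14925 in macrophages and 469 in neutrophils. These genes set the gates, so they check the labels only. T cells, gated with no limit on S100a8 and S100a9, held 305.6 CPM of them, against 50.7 in monocytes, 20.9 in dendritic cells and 12.04 in macrophages, so their level of a neutrophil gene is no like background for those classes. Neutrophils were the shallowest of the myeloid classes, with a median of 1474 UMIs per cell against 5199 in macrophages, 4591 in monocytes and 4604.5 in dendritic cells.

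Library 4 stood apart for several of the genes. It held 945 of the 2522 neutrophils and 8.76% of the cells kept, but 55.9% of all Cxcl3 UMIs, 69.0% of Cxcl5 and 76.4% of Ppbp, against 17.0% of Cxcl2, 6.25% of Cxcr4 and 3.45% of Cxcl1. Values without it are given beside those it moved most. Of the cells kept, 3775 had a barcode that also occurred in another library, at 0.0417 to 0.662 shared barcodes per 1000000 pairs of cells over the 66 pairs of libraries.

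The class of Krt8/Krt18-positive, Ptprc-negative cells, meant to hold tumor cells, had 18 barcodes, too few for levels by library, and went against its label. All of them had exactly 1 keratin UMI. The macrophage genes stood at 6895 CPM, with UMIs in 16 of the 18. S100a8 and S100a9 together stood at 9084 CPM, with UMIs in only 3 of the 18. Over all 140639 barcodes, Krt8 had 25 UMIs and Krt18 had 189. These 18 barcodes are not described further as tumor cells. A class added after this was seen, of 101 Ptprc-negative cells with collagen or other fibroblast UMIs (Col1a1, Col3a1, Pdgfra, Dcn), was used for stromal values, pooled over 11 libraries.

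Of 8308 genes with at least 10 CPM in 1 of the 4 myeloid classes, pooled over libraries, 8.74% were highest in neutrophils in all 9 libraries with 50 cells of every myeloid class, and 9.17% in macrophages. Highest in neutrophils in all 9 were 4 of the 6 members that reached this level (Cxcl2, Cxcl3, Cxcr2 and Cxcr4; Cxcl1 in 8 of 9, Ppbp in 0). At least 4-fold over each other class in all 9 libraries were 1.1% of the genes, and 3 members: Cxcl2, Cxcl3 and Cxcr2. Cxcl5 and Cxcl12 did not reach this level.

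Cxcl2 was the dominant chemokine RNA of the set, and neutrophils carried far more of it per unit of RNA than any other class. In neutrophils the 10 libraries spanned 10024 CPM (library 1) to 46986 (library 4) around a median of 25592, and it ranked 4 among all genes of the class by median. Without library 4 the median was 21077 and the highest value 37917. Monocytes stood at 882 to 3411 (median 2153), macrophages at 716 to 1658 (median 1259) and dendritic cells at 153 to 793 (median 299). The lowest neutrophil value was above every value of the other classes. Within a library, neutrophils were above monocytes by a median of 11.7 times (6.65 to 19.4, 10 of 10 libraries), above macrophages by 24.0 times (13.6 to 61.6, 10 of 10) and above dendritic cells by 65.7 times (38.0 to 109, 9 of 9).

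A Cxcl2 UMI was found in 96.3% of neutrophils (95% Clopper-Pearson interval 95.5 to 97.0%, counting error only), 67.6% of macrophages, 56.0% of monocytes and 31.2% of dendritic cells. The share was 18.9% in T cells and 12.2% in B cells, with median depths of 3524.5 and 1389 UMIs. When each cell was thinned to 500 UMIs, the shares were 93.4% in neutrophils, 31.8% in macrophages, 31.2% in monocytes, 8.69% in dendritic cells, 5.10% in T cells and 4.96% in B cells. Macrophages stood above T cells in 11 of 11 libraries, by 1.19 to 9.50 times (median 2.75). Dendritic cells did so in 7 of 10, with ratios from 0.512 to 1.52. The part of neutrophil RNA in the T cell level was not tested. The median neutrophil held 37 Cxcl2 UMIs and the fullest 1048, and the 1% of neutrophils with the most held 8.90% of the class's Cxcl2 UMIs.

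**Figure D1:**
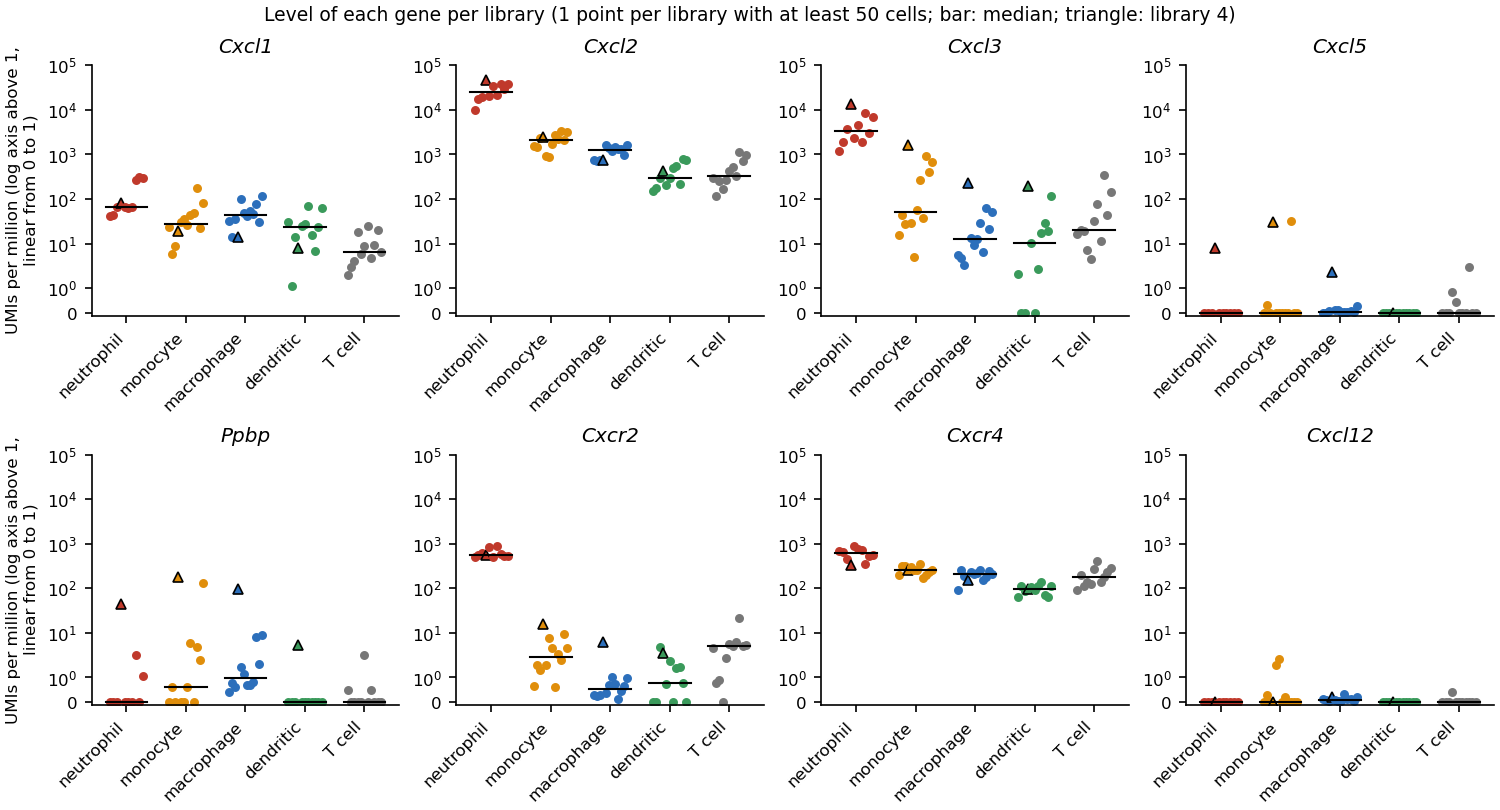
CPM of each of the 8 genes (vertical axis, logarithmic above 1) in neutrophils, monocytes, macrophages, dendritic cells and T cells, with 1 point per library of at least 50 cells, a bar at the median and a triangle for library 4. Cxcl2, Cxcl3 and Cxcr2 in neutrophils lie above every point of the other classes, except that Cxcl3 in monocytes of library 4 (1590) reaches above the lowest neutrophil value (1198). Cxcl12 lies at or near 0 in all of them.

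Cxcl3, a close relative of Cxcl2 that signals through the same receptor, was also highest in neutrophils. Neutrophils held a median of 3319 CPM (2966 without library 4), between 1198 in library 1 and 13242 in library 4, which gave it rank 27 among the genes of the class. Macrophages held 3.27 to 223 (median 12.9), monocytes 5.14 to 1590 (median 50.6) and dendritic cells 0 to 197 (median 10.5). Library 4 was highest in all 3, and the medians without it were 12.6, 44.3 and 6.62. Neutrophils were higher than macrophages in 10 of 10 libraries by a median of 172 times (59.3 to 1122), and higher than monocytes in 10 of 10 by 29.6 times (7.49 to 131). T cells held 4.57 to 342 (median 19.9), more than macrophages in 9 of 11 libraries. With more S100a8 and S100a9 in those T cells than in macrophages, this order does not show whether the Cxcl3 of macrophages was background. Library 4 had 23 T cells and gave no such comparison. The ratio of neutrophils to macrophages was larger for Cxcl3 than for Cxcl2 in 9 of 10 libraries (not library 4), and that of neutrophils to monocytes in 6 of 10 (not libraries 4, 10, 11 and 12). Monocytes were above T cells in 10 of 11 libraries (median ratio 2.70).

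The balance of Cxcl2 to Cxcl3 differed by class. Neutrophils held 3.55 to 11.1 Cxcl2 UMIs for each Cxcl3 UMI (median 7.92 over 10 libraries), monocytes 1.53 to 172 (median 31.8 over 12) and macrophages 3.42 to 233 (median 107 over 12). In library 4 the ratios were 3.55 in neutrophils, 1.53 in monocytes, 3.42 in macrophages and 2.20 in dendritic cells, the lowest of each class, and the ratio in macrophages there was close to that in neutrophils. The T cells of the 11 other libraries held 3.31 to 57.3 (median 13.5). Library 4 also held the most neutrophils, 945, and the part of their RNA in the Cxcl3 of its other classes was not tested.

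**Figure D2:**
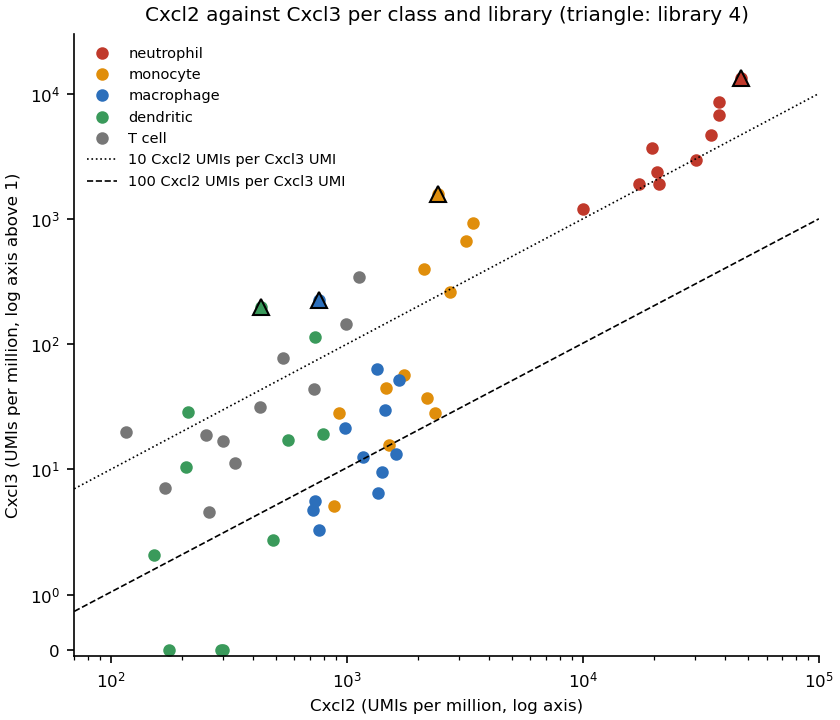
Cxcl2 (horizontal, logarithmic) against Cxcl3 (vertical, logarithmic above 1), both in CPM, with 1 point per class and library and lines at 10 and 100 Cxcl2 UMIs per Cxcl3 UMI. Neutrophils lie near or above the line at 10, most macrophages lie near the line at 100, and the triangles of library 4 lie above the line at 10 in all 4 classes.

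Cxcl1, the ligand most often linked to stromal and macrophage production, was low in all leukocyte classes. Neutrophils held 41.7 to 316 CPM (median 66.5), macrophages 13.9 to 119 (median 43.9), monocytes 5.93 to 176 (median 27.9) and dendritic cells 1.11 to 68.4 (median 23.9), against 2.03 to 24.3 (median 6.42) in T cells. The neutrophil values fell into 7 libraries at 41.7 to 80.0 and 3 libraries (10, 11 and 12) at 268 to 316. Neutrophils were above macrophages in 10 of 10 libraries, by 1.15 to 10.5 times, but some neutrophil levels rest on very few cells. Library 1 had 7 UMIs in 0.870% of 115 neutrophils and library 2 had 10 in 0.575% of 174, against 8.57% and 3.73% of macrophages. The share of cells, not matched for depth, was higher in neutrophils in library 4 (5.61% against 4.56%) and library 11 (10.0% against 9.41%). Few cells carried the transcript: a UMI was seen in 5.95% of neutrophils and 10.0% of macrophages, and 63.3% of the Cxcl1 UMIs of neutrophils lay in the 1% of cells with the most. The collagen-positive cells, with a UMI in 35 of 101 cells, held 151 CPM pooled. Pooled levels were 128 in neutrophils and 48.9 in macrophages. Without library 4 the pooled levels were 159 in collagen-positive cells, 146 in neutrophils and 51.3 in macrophages. In the collagen-positive cells Cxcl1 made up 70.1% of the UMIs of the 5 ligands, against 0.295% in neutrophils and 3.98% in macrophages.

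Cxcl5 and Ppbp were rare, and most of their UMIs came from library 4. Cxcl5 had 364 UMIs in all cells kept. In neutrophils 13 UMIs were found, all in 2 cells of library 4, and the 9 other libraries were at 0. In monocytes it stood at 30.3 CPM in library 4 and 31.8 in library 10, at 0.312 in library 2, and at 0 in the 9 others. The first was 59 UMIs in 1.16% of 518 cells, and the second 13 UMIs in 1.94% of 103. Over all libraries 9 monocytes had a Cxcl5 UMI, with 46 in 1 of them. In macrophages it reached 2.36 in library 4 and at most 0.303 elsewhere. The collagen-positive cells held 23 Cxcl5 UMIs, in 2 cells (18.1 CPM pooled, against 2.50 in monocytes and 0.221 in macrophages). Without library 4 the collagen-positive cells held 6 UMIs, in 1 cell (4.98 CPM), and the pooled levels were 0.515 in monocytes and 0.0725 in macrophages. No Cxcl5 UMI was found in dendritic cells, which allows up to 0.214 CPM (3 counts of the class total, counting error only).

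Ppbp was also highest in library 4, with more UMIs in monocytes and macrophages than in neutrophils. Macrophages held 94.7 CPM in library 4, 8.99 in library 12, 8.05 in library 10 and 0.433 to 2.03 in the 9 others. Monocytes held 182 in library 4 and 134 in library 12, and 0 to 5.79 in the 10 others. Neutrophils held 44.7 in library 4, 3.11 in library 10, 1.07 in library 12 and 0 in the 7 others. In library 4, 583 of 5419 macrophages (10.8%) and 50 of 518 monocytes (9.65%) had a Ppbp UMI, with up to 165 in 1 macrophage. Platelet genes were looked for in these cells. The 583 macrophages held 47900 UMIs of Pf4, a platelet chemokine, or 9820 CPM, against 3800 CPM in the 4836 other macrophages of the library and a median of 634.6 CPM over 12 libraries. They held 2 UMIs of Itga2b, 1 of Gp9 and 0 of Gp1bb, which encode platelet surface receptors. Of the 583, 90.7% had an Arg1 UMI, against 74.2% of all macrophages of the library. The 583 were also deeper, with a median of 7887 UMIs per cell against 6798, and depth moves such a share.

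Cxcr2 marked neutrophils nearly alone. Neutrophils held 501 to 893 CPM (median 571, the smallest ratio of highest to lowest among the 5 most abundant members), monocytes 0.631 to 15.9 (median 2.91), macrophages 0.114 to 6.18 (median 0.555) and dendritic cells 0 to 4.82 (median 0.797). T cells stood at 0 to 21.3 (median 4.99), in cells that also held more S100a8 and S100a9 than the other 3 myeloid classes. Neutrophils were above macrophages in 10 of 10 libraries by a median of 1069 times (92.2 to 7823). A Cxcr2 UMI was seen in 53.8% of neutrophils (51.8 to 55.8%, counting error only), and in 41.7 to 65.3% over the 10 libraries. After thinning to 500 UMIs the share was 27.1%, against 0.0418% of macrophages and 0.135% of T cells. Library 4, the highest for Cxcl2 and Cxcl3, stood at 570 for Cxcr2, next to the median.

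Cxcr4 was present in every leukocyte class, and its order among them depended on the scale. In CPM, neutrophils held 339 to 871 (median 605), monocytes 173 to 355 (median 260), macrophages 93.7 to 264 (median 211), T cells 93.2 to 404 (median 180) and dendritic cells 63.3 to 140 (median 98.0). Neutrophils were highest in 9 of 9 libraries with all 4 myeloid classes, by 1.29 to 4.10 times over monocytes, while monocytes and macrophages were close (1.23 times at the median, 11 of 12 libraries higher in monocytes). Per cell, macrophages held the most, with a median of 1.73 UMIs over libraries against 1.17 in monocytes, 0.930 in neutrophils and 0.720 in dendritic cells, and were highest in 7 of the 9 libraries against 1 of 9 for neutrophils. Within neutrophils, libraries 4 and 10 were lowest for Cxcr4, at 339 and 355, and highest for Cxcl3, at 13242 and 8512.

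Cxcl1 changed its order in the same way, while Cxcl2, Cxcl3 and Cxcr2 did not. Per cell, Cxcl1 was highest in macrophages in 6 of 9 libraries and in neutrophils in 2, at medians of 0.398 and 0.117 UMIs. Cxcl2 was highest in neutrophils in 9 of 9 libraries on both scales, with a median of 43.5 UMIs per neutrophil, 10.1 per monocyte and 8.06 per macrophage. Cxcl3 and Cxcr2 were also highest in neutrophils in 9 of 9 libraries on both scales, at medians of 6.38 and 1.03 UMIs per neutrophil.

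**Figure D3:**
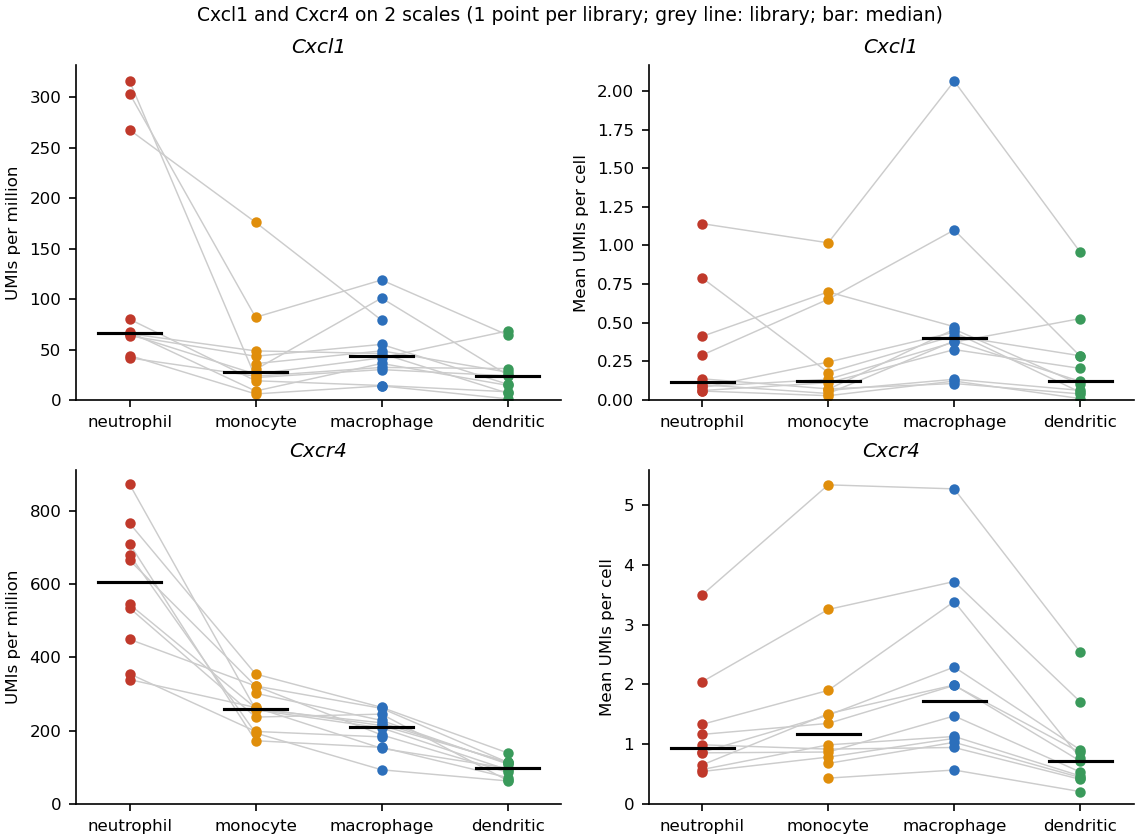
Cxcl1 (top) and Cxcr4 (bottom) in CPM (left) and mean UMIs per cell (right) for the 4 myeloid classes, with 1 point per library, grey lines joining the classes of a library and bars at the median. For Cxcr4 the neutrophil median is the highest on the left (605) and below that of macrophages on the right (0.930 against 1.73).

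Cxcl12 was nearly absent from the leukocytes. No UMI was found in 2522 neutrophils, which allows up to 0.525 CPM, none in 2138 dendritic cells (up to 0.214), 5 in 4612 monocytes and 71 in 88817 macrophages (0.115 CPM, Poisson interval 0.0896 to 0.145). The 101 collagen-positive cells held 33 of the 126 Cxcl12 UMIs of the cells kept, 26.0 CPM (17.9 to 36.6), with a UMI in 13 cells. These cells are CD45-negative by their UMIs and came with a CD45+ selection, so they are not a sample of the stroma. Endothelial cells, the other usual source of Cxcl12, were not gated.

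Because macrophages made up 68.9% of the cells kept, the class with the highest level was often not the class with most of the RNA. Macrophages held 54.2% of all Cxcl2 UMIs and neutrophils, at 1.96% of the cells, held 15.8%. For Cxcl1 the shares were 77.4% and 1.87%, and for Cxcr4 74.4% and 1.92%. Neutrophils held 51.6% of Cxcr2 and 32.1% of Cxcl3. Cells that met no gate, 19.0% of the cells kept, held 40.4% of Cxcl3 and 29.7% of Cxcr2. Without library 4 the neutrophil shares were 60.3% of Cxcr2, 34.8% of Cxcl3 and 12.03% of Cxcl2, and the cells with no gate held 20.8% of Cxcr2 and 30.4% of Cxcl3. Over all libraries the cells with no gate held 1058 CPM of S100a8 and S100a9.

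**Figure D4:**
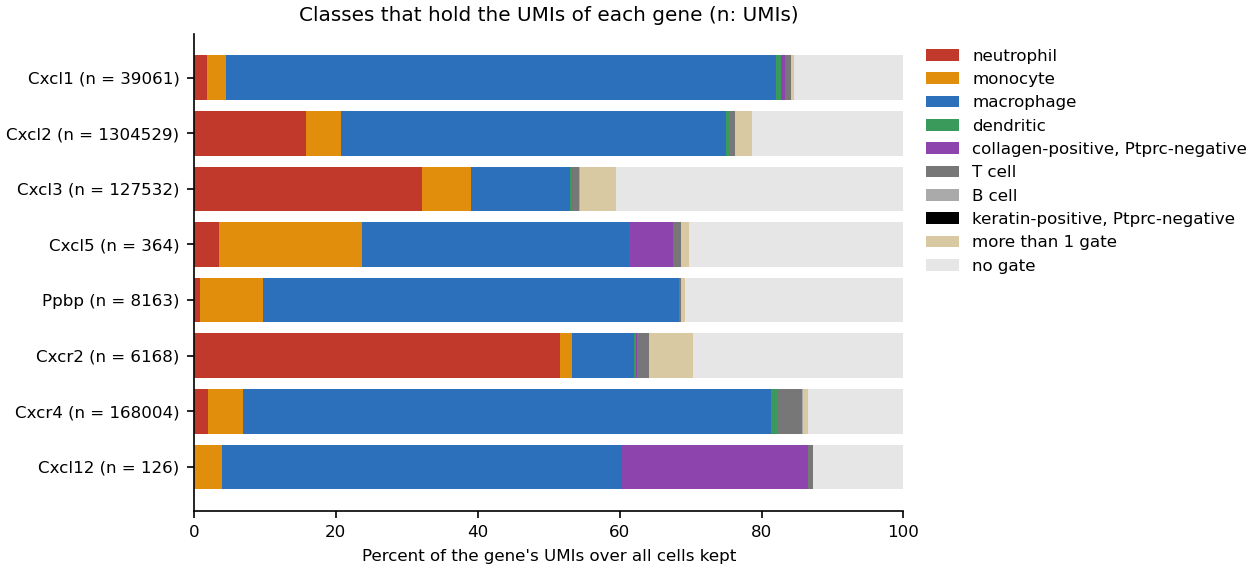
Percent of the UMIs of each gene (horizontal axis) that lay in each class over all cells kept, with the number of UMIs beside each gene. The macrophage part is 54.2% for Cxcl2 and 14.0% for Cxcl3, and the neutrophil part is 51.6% for Cxcr2 and 0% for Cxcl12.

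Other genes of neutrophil recruitment, a list of 20, gave 15 with at least 10 CPM in 1 of the pooled myeloid classes. Of these, 9 were highest in neutrophils in all 9 libraries, among them the receptor Cxcr1, the formyl peptide receptors Fpr1 and Fpr2, the complement receptor C5ar1, the chemokine receptor Ccr1, and the cytokines Il1a, Il1b and Tnf. Fpr1 had a median of 147 CPM in neutrophils and 1.40 in macrophages, and Cxcr1, a second receptor of this ligand family, had 34.1 and 0.0414. Il1b stood at 12466 in neutrophils, 4312 in monocytes and 1671 in macrophages. Csf3, the growth factor of neutrophils, was highest in neutrophils in 8 of 9 libraries at a median of 17.9. Pf4 was highest in macrophages in 9 of 9, and the leukotriene receptor Ltb4r1 and the integrin Itgb2 were highest in monocytes in 7 and 8 of 9. Ackr3, a scavenger of Cxcl12, had a median of 1.99 in monocytes and 0 in neutrophils, but pooled levels of 5.59 and 6.12. Monocytes were highest for it in 7 of 9 libraries and neutrophils in 0. In a neutrophil library 3 counts equal 1.70 to 33.7 CPM, so a level of 0 there is no clear contrast with 1.99.

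The genes whose levels ran most closely with each abundant member were found over 45 sums of a class in a library, by Pearson's r of log2(CPM + 1), gate genes left out. These sums share libraries and classes, so r mostly follows the classes. For Cxcl2 they were Ccl3 (r = 0.96), a chemokine of myeloid cells, Lilr4b (0.96) and Vmp1 (0.96), an autophagy protein. For Cxcl3 they were Lrg1 (0.92), Igf1r (0.91) and Lcn2 (0.91), a siderophore-binding granule protein. For Cxcr2 they were Hdc (0.98), which makes histamine, Il1f9 (0.97) and AC110211.1 (0.97). For Cxcr4 they were Ets2 (0.93), Rnf149 (0.93) and Sema4d (0.92), and for Cxcl1 Il1a, Acot1 and Cited2, at 0.66 to 0.67. Over the 10 neutrophil sums alone, r for Cxcl2 and Ccl3 was 0.78, and Lrg1 ran against Cxcl3 (r = -0.43).

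Immediate early and heat shock genes, which respond to handling and dissociation as well as to signals in the tissue, moved with the class differences. Summed over 15 such genes (Fos, Jun, Atf3, Nfkbia, Hspa1a and others), neutrophils stood at 18122 to 32096 CPM (median 25210), monocytes at 8603 to 16945 (median 10198), macrophages at 6877 to 11837 (median 8903) and dendritic cells at 5926 to 10625 (median 7467). Library 1 was lowest in neutrophils for this sum, for Cxcl1, for Cxcl2 and for Cxcl3, and library 4 was highest for it in macrophages and monocytes but ranked 5 of 11 in dendritic cells. In neutrophils library 8 was highest (32096 against 28545 in library 4), with a Cxcl3 level of 4667 against 13242. The part of handling in the levels of Cxcl1, Cxcl2 and Cxcl3 was not tested.

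Neutrophils with Retnlg UMIs, a gene of mature circulating neutrophils, were set beside those with Ccl3 and no Retnlg UMIs, a division by 1 UMI that depth also moves (median 1834 and 1418 UMIs per cell). Cxcl2 was higher in the Ccl3 cells in 8 of 10 libraries (median 33484 against 24282 CPM) and Cxcr2 was higher in the Retnlg cells in 9 of 10 (median 569 against 458). Retnlg was 1 of the gate genes, and Ccl3 was the gene closest to Cxcl2 above. Of 5494 genes, 0.874% were higher in the Retnlg cells in every library and 0.673% lower, and no member was.

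Neutrophils with neither gene, 367 cells with a median of 856 UMIs, were comparable in 5 libraries. Their Cxcr2 was 692 in library 2, 1177 in library 4, 1500 in library 7, 741 in library 8 and 1153 in library 9, above the Retnlg cells in 5 of 5 by 1.21 to 2.33 times. Cxcr4 was also above in 5 of 5 (1.06 to 1.96 times), and Cxcl3 below in 5 of 5 (0.251 to 0.661 times). Among all genes 6.68% were higher in these cells in all 5 libraries and 3.13% lower. By choice the cells with neither gene lacked Ccl3 UMIs, which the Retnlg cells could hold, and they met the gate on genes other than Retnlg. They were also shallower than the Retnlg cells (median 856 against 1834 UMIs). The part of this choice and of depth in these orders was not tested.

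Cxcr4, which retains neutrophils in the marrow, and Cxcr2, which favours their release, were found together in 704 of 2522 neutrophils (27.9%), and 645 had neither. Cxcr4 was seen in 51.9% of neutrophils with a Cxcr2 UMI and 44.6% of those without, but the former were deeper (median 1779 against 1222 UMIs). In CPM the Cxcr4 levels were 573 and 548, and cells with Cxcr2 were the higher in 4 of 10 libraries. Cxcl2 was lower in the cells with Cxcr2 in 8 of 10 libraries (34079 against 39155 pooled), though its share of cells was 96.5% and 96.1%. The same difference in depth lies under this order, and how many of all genes show it was not counted. No order of Cxcl3 was seen, with 5 of 10 libraries higher in the cells with Cxcr2.

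Macrophages with Arg1 and no Cxcl9 UMIs held more Cxcl1, Cxcl2, Cxcl3 and Ppbp than those with Cxcl9 and no Arg1. Arg1, an arginase, is widely used for suppressive macrophages, and Cxcl9 for those exposed to interferon gamma. Cxcl3 stood at 4.17 to 278 (median 19.7) in 31898 Arg1 cells and at 1.60 to 115 (median 5.87) in 14991 Cxcl9 cells, 1.29 to 13.8 times higher in 12 of 12 libraries. Ppbp was higher in 12 of 12, at a median of 1.64 against 0.792, and in library 4 at 125.3 against 3.27. The Cxcl9 cells held 0 to 18 Ppbp UMIs in a library (median 4), and 3 in library 4, where they numbered 99. Cxcl1 (1.20 to 4.04 times) and Cxcl2 (1.05 to 2.16 times) were also higher in 12 of 12. Cxcr4 was higher in 8 of 12. The 21675 macrophages with neither gene were not below the Arg1 cells throughout: Cxcl2 was higher in them in 5 of 12 libraries (median 1304 against 1334 CPM), Cxcl1 in 3, Cxcl3 in 1 and Ppbp in 0. The 20253 macrophages with both genes were above the Cxcl9 cells in 9 of 12 libraries for Cxcl1 and for Cxcl2, 10 of 12 for Cxcl3 and 7 of 12 for Ppbp. Of 7318 genes, 13.6% were higher in the Arg1 cells in all 12 libraries and 8.17% lower, and the members higher in all 12 were Cxcl1, Cxcl2, Cxcl3 and Ppbp. The Arg1 cells were also deeper, with a median of 6124 UMIs against 4363.

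Dendritic cells with at least 2 of Ccr7, Fscn1 and Ccl22, the mature migratory kind, differed from those with Xcr1 or Clec9a, the cross-presenting kind, in Cxcl1 and Cxcr4. Cxcl1 stood at 1.65 to 200 (median 32.7) against 0 to 17.4 (median 2.66), higher in 10 of 10 libraries. The second range rests on few counts, since the Xcr1 or Clec9a cells held at most 1 Cxcl1 UMI in 7 of 10 libraries, and the mature cells held 1 to 46. Cxcr4 stood at 80.8 to 200 (median 130.4) against 29.9 to 99.0 (median 41.7), also in 10 of 10, by 1.46 to 4.55 times. Cxcl2 was higher in 8 of 10, and in library 4 it stood at 213 against 1020. Among 7027 genes, 12.3% were higher in the mature cells in every library and 12.8% lower. The mature cells were shallower, with a median of 3636 UMIs against 5967.

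**Figure D5:**
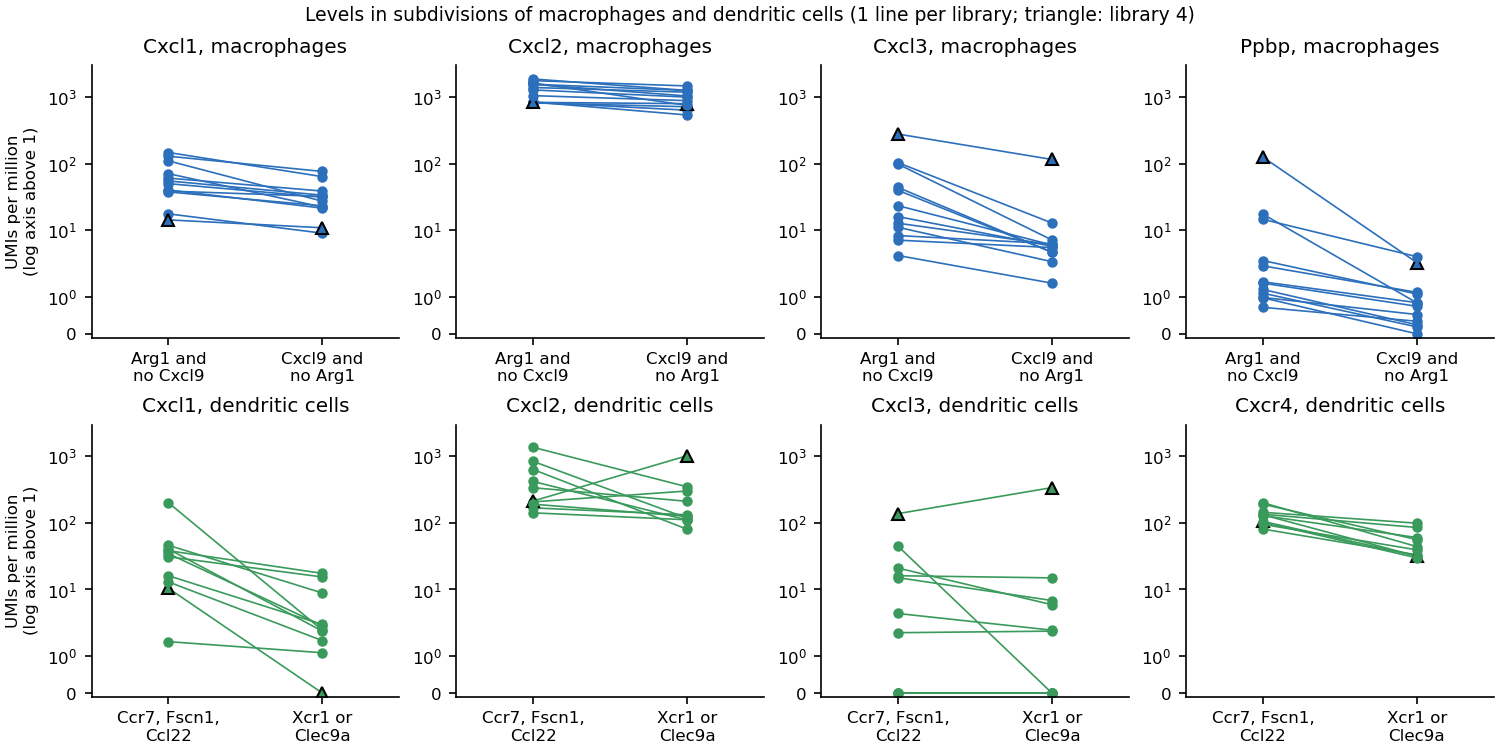
CPM (vertical axis, logarithmic above 1) in macrophages with Arg1 or with Cxcl9 UMIs (top) and in dendritic cells with Ccr7, Fscn1 and Ccl22 or with Xcr1 or Clec9a (bottom), with 1 line per library and triangles for library 4. All 12 lines fall from left to right for Cxcl1, Cxcl2, Cxcl3 and Ppbp in macrophages, and all 10 do for Cxcl1 and Cxcr4 in dendritic cells.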

How the data were processed

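CD45+ cells of MC38 tumors from 12 mice were profiled with the 10x Genomics 3′ v3 kit. The authors deposited raw UMI counts of all libraries in 1 matrix, without normalization. The submitters' processing notes name Cell Ranger 2.1.1, Seurat and mm10, and the matrix header names Cell Ranger 3.0.2. The annotation used for counting is not named in any source read. As in the study, the filter kept cells with over 200 and under 5000 genes whose mitochondrial share was at most 10%.

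Rates of S100a8 and S100a9 and of the macrophage genes were per 10000 UMIs of a cell, and other limits were UMI counts. Neutrophils needed a rate of 20 for S100a8 and S100a9, 2 of their other genes and a macrophage rate under 20. Macrophages needed a rate of 50 for their genes, with 3 UMIs of 2 genes, and under 20 for S100a8 and S100a9. Monocytes and dendritic cells needed 3 UMIs of 2 genes and a macrophage rate under 20. Myeloid classes allowed at most 1 UMI of T, B or NK cell genes. Cells meeting several gates (375) were left out, and no doublet caller was run. The limit of 20 on S100a8 and S100a9 in monocytes and dendritic cells was added after values had been seen. The members, lists and gates were chosen with earlier results of these data known. CPM (UMI sums per 1000000 UMIs) were given for classes of at least 50 cells in a library, or 20 cells in a subdivision. Libraries held 4256 to 38110 barcodes and 21649947 to 158760328 UMIs, with a median depth of 2291 to 15081 UMIs per cell kept.

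Named genes were the members, 20 recruitment genes, 15 immediate early or heat shock genes, and for each member with a median of at least 20 CPM in its highest class the 3 genes of highest correlation (pseudocount 1). The values of 1 recruitment gene are not reported here. Intervals are exact at 95%, and 0 counts were given a limit of 3 counts. Scripts were tested on simulated data. Figures were drawn with matplotlib 3.10.9, sums used pandas 2.3.3 and numpy 2.4.6, and intervals scipy 1.17.1, under Python 3.11.15.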

Additional observations from a re-analysis of the deposited data

Results flagged for a closer look

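Over 46 sets of 5 or 10 libraries, 19 had 1 library far from the others by Dixon's ratio, which chance gives in about 1 of 20 sets of independent normal values. The sets here share libraries and cells, and in 8 of the 19 all other libraries were at 0, which sets the ratio at 1 whatever the count. Library 4 was the one in all but 3 of them. In neutrophils it held 8.07 CPM of Cxcl5 (0.0138 per cell) and 44.7 of Ppbp (0.0762 per cell). In Retnlg neutrophils it held 14786 of Cxcl3, 2.63 of Cxcl5 and 23.7 of Ppbp, in Ccl3 neutrophils 15.2 of Cxcl5 and 73.2 of Ppbp, and in those with neither gene 94.2 of Cxcl1 and 7.85 of Ppbp. In the mature dendritic cells it held 138 of Cxcl3 and 5.20 of Ppbp, and in the Xcr1 or Clec9a cells 1020 of Cxcl2, 339 of Cxcl3 and 7.97 of Ppbp. Some of these levels rest on very few UMIs: 2 for Cxcl5 in Retnlg neutrophils and 1 for Ppbp in neutrophils with neither gene. Ppbp had 2 UMIs in the Xcr1 or Clec9a cells of library 4, and 4 over all libraries in the mature dendritic cells.

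The other 3 were Cxcr4 per neutrophil in library 8, where neutrophils had the highest median depth (3.49 UMIs per cell), Cxcl1 in the mature dendritic cells of library 7 (200.4 CPM), and Cxcr2 in the Xcr1 or Clec9a cells of library 3 (8.60 CPM). That Cxcr2 level was 3 UMIs in 34 cells.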

How the results depend on the processing

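The median levels of the members and their counts of libraries were recomputed with lineage minimums halved and doubled, no upper limit on genes and each library left out. The median levels alone were also recomputed with a 5% mitochondrial limit, pooled sums, the 5% deepest cells removed and 20 cells as minimum. Shares in neutrophils were recomputed only at 1000 UMIs and with at least 2 UMIs. After the data were seen, no S100a8 and S100a9 limit in monocytes and dendritic cells and removal of shared barcodes were added. The limit in macrophages stayed. UMIs per cell, for counts of libraries, and UMI shares without library 4 were also added then. Of 322 recomputed values for the leading results, 314 moved by less than the spread over libraries or 1.5 times. None of the leave-one-out values moved further, but they had little room to. Dropping 1 library lowers a count by at most 1 and takes a median no further than a neighbouring value. Pooling put Cxcl3 in neutrophils at 7158 instead of 3319 CPM and in monocytes at 304 instead of 50.6. It put Ppbp in monocytes at 24.7 instead of 0.613 and in macrophages at 7.74 instead of 0.997. The last 3 lie within the spread over libraries, which library 4 widens. Cxcl1 in neutrophils stood at 128 pooled instead of 66.5, also within its spread. With UMIs per cell, neutrophils were highest in 2 libraries for Cxcl1 and in 1 for Cxcr4. With no upper limit on genes, Cxcl12 was highest in macrophages in 5 libraries instead of 8. At 1000 UMIs the share of neutrophils with Cxcr2 was 36.1% and with Cxcr4 34.8%, and with at least 2 UMIs 7.28% and 5.27%. No paired analysis was possible because the libraries carry no replicate number of a group and no test of a difference was run. Depth limits Cxcl5, Ppbp and Cxcl12, at under 1 CPM at the median of each myeloid class.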
